A study of Mus musculus with 6 samples.

Results

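Connexins and pannexins are the membrane proteins that pass small molecules between neighboring cells or out of them, and 5 of their genes were followed here in the corneal epithelium: Gja1, Gjb2, Gjb5, Gjb6 and Panx1. The genes were taken by symbol from the 17784 genes of the expression table, where all 5 were present, and all 5 were among the 12999 genes with enough counts to test. In epithelial cells from mice in which Ptch1 ablation was induced, Gjb5 was higher than in controls, Gjb6 was lower, and Gja1, Gjb2 and Panx1 did not pass the test. None of the 5 changed by 2-fold. With these opposite differences, the ratio of Gjb5 to Gjb6 level (geometric mean of TPM + 0.1) was 2.60 in controls and 6.0 in Ptch1-ablated samples.

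Connexin proteins assemble in rings that form a hemichannel in the plasma membrane, and hemichannels of adjoining cells dock into a gap junction through which ions, second messengers and metabolites move. Pannexins resemble connexins in membrane topology but open mainly to the outside, where they release ATP. In stratified epithelia such as the cornea and the epidermis, different connexins are made in different layers, and the combination present sets which molecules can pass.

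The study asked how activation of Hedgehog signaling in the corneal stroma affects the cornea. Ptch1 encodes the Hedgehog receptor that holds the pathway off, and mice that carried floxed Ptch1 were crossed to Prrx1-CreERT, a tamoxifen-inducible recombinase. RNA-seq was done on corneal epithelial cells, released from the cornea with EDTA, from 3 control samples titled WT and 3 samples from Prrx1-CreERT;Ptch1 mice titled KO, called control and Ptch1-ablated here. All 6 samples carry the same treatment in the labels: 3 doses of tamoxifen, an age of 10 weeks and an interval of 2 months. The labels give the controls no genotype beyond WT and give neither the sex nor the number of mice behind a sample, and the floxed Ptch1 line had been backcrossed to C57BL/6. Prrx1-CreERT acts in keratocytes and other mesenchymal cells of the eye and is not directed at the epithelial cells that were sequenced. Ptch1 itself stood at 7.31, 9.70 and 10.2 TPM (a transcript level scaled for length and depth) in control replicates 1, 2 and 3, and at 5.28, 6.33 and 7.01 TPM in the Ptch1-ablated replicates. The difference on the log2 scale was -0.51 (SE, the standard error, 0.13, adjusted p = 0.0401, edgeR's quasi-likelihood test with Benjamini-Hochberg adjustment), a call that was lost when any sample other than control replicate 1 was left out (adjusted p from 0.0564 to 0.143) and with limma on log2 TPM (0.0781 to 0.133).

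The samples had 20296741 to 20625813 expected counts each, so depth did not separate the groups. On the leading principal component, which held 58.1% of variance, Ptch1-ablated replicate 1 scored 51.7, apart from the other 2 replicates of its group at 18.3 and 19.1 and from the controls at -33.7 to -26.5. The corneal epithelial keratin gene Krt12 had 37107 to 49487 TPM, and all 8 corneal epithelial markers were tested and none passed. Keratocyte and stromal markers summed to 3.39, 2.01 and 38.7 TPM in control replicates 1, 2 and 3. In Ptch1-ablated replicates 1, 2 and 3 they summed to 5.18, 5.0 and 2.25 TPM. The keratocyte gene Kera stood at no more than 0.07 TPM, so other genes of that list carried the high sum of control replicate 3. Conjunctival markers summed to 1384 to 2309 TPM in controls and 2174 to 4667 TPM in Ptch1-ablated samples, highest in Ptch1-ablated replicate 1, with Krt13, Krt4 and Krt19 carrying the sum and the goblet cell genes Spdef and Gcnt3 near 0. Summed immune markers ran from 127 to 167 TPM in controls and from 153 to 207 TPM in Ptch1-ablated samples. None of the tested markers on these lists, nor on those for corneal endothelium, melanocytes and nerve, passed the test, and of the vascular markers none had the counts to be tested. The immediate early genes, which cells induce rapidly on stimulation, were higher as a group: 16 of 20 passed the test and all 16 rose. Of all tested genes 14% passed, 7.61% upward. Summed levels of the immediate early genes were 1498 to 1854 TPM in controls and 3588 to 4468 TPM in Ptch1-ablated samples. The part of these markers and genes in the connexin results was not tested.

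The 5 genes lie on 4 chromosomes. Gjb2 and Gjb6 neighbor each other on chromosome 14 next to Gja3, and Gjb5 lies on chromosome 4. Gja1 lies on chromosome 10 and Panx1 on chromosome 9. The 250 bases before the RefSeq start of 4 of the genes are given below on GRCm38.p6 because they lie just upstream of the most abundant connexins, Gja1 and Gjb2, and of the members with the largest rise and the largest fall, Gjb5 and Gjb6. The windows were searched on both strands for the letters of 5 motifs, and matches are in capitals. The motifs were the AP-1 site TGACTCA, the Sp1 GC box GGGCGG, the TATA box TATAAA, the E box CACGTG and the KLF box CACCC, none of which contains another although adjacent matches can share bases.
Gja1, chr10:56377050-56377299, plus strand: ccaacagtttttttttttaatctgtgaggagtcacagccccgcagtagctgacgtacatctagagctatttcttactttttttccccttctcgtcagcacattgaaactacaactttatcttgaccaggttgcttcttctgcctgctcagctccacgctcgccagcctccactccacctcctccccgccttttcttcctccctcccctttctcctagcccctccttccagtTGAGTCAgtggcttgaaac
Gjb2, chr14:57104703-57104952, minus strand: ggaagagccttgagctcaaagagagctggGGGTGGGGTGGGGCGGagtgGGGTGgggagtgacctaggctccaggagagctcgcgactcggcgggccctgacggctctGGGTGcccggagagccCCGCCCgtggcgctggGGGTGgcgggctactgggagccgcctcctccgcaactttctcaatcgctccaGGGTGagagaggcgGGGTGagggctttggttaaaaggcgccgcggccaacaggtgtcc
Gjb5, chr4:127358165-127358414, minus strand: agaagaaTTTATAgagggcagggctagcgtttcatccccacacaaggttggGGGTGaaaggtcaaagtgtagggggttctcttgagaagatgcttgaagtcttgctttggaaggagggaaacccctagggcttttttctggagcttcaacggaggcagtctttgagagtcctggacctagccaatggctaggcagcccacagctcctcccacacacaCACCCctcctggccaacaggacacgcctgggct
Gjb6, chr14:57133612-57133861, minus strand: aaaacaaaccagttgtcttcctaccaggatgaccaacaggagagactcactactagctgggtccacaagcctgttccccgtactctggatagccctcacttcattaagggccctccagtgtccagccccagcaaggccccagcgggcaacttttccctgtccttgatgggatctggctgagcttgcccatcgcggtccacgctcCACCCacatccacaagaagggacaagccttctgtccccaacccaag
The Gja1 window holds the AP-1 letters on its minus strand, as TGAGTCA, starting 19 bases before the start. The AP-1 letters are in 4.46% of all 32851 RefSeq promoter windows of this length. The Gjb2 window is the richest in G and C, at 69.2% with 18 CpG, and holds 2 GC boxes and 7 KLF boxes, against a median over all windows of 52.4% and 6 CpG. GC boxes were found in 32.7% of all windows and KLF boxes in 52.0%. Although Gjb6 is its neighbor, the Gjb6 window has 56.8% G and C with 5 CpG, no GC box and a single KLF box 46 bases before the start. The Gjb5 window has 54.4% G and C with 3 CpG, KLF boxes 199 and 33 bases before the start, and TATA box letters on its minus strand 243 bases before the start, letters found in 12.4% of all windows. The Panx1 window on chromosome 9 (chr9:15045479-15045728, minus strand) held none of these letters and had 59.6% G and C with 17 CpG, and E box letters, found in 6.02% of all windows, were in none of the 5. These matches are descriptions of the letters, and no factor binding was measured.

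Levels of the 5 genes spanned more than an order of magnitude, and their order was nearly the same in both groups. Gja1 (gene 14609), which encodes Cx43, the connexin of basal corneal cells and of many other tissues, was highest at 244 ± 9.08 TPM in controls and 221 ± 9.22 TPM in Ptch1-ablated samples (mean ± SD, n = 3, as for each pair that follows). Gjb2 (gene 14619), which encodes Cx26, followed with 164 ± 3.15 and 138 ± 11.5 TPM. Gjb5 (gene 14622), an epidermal-type connexin, had 35.9 ± 1.23 and 49.6 ± 3.66 TPM. Each of these genes was separated from the next by far more than the spread between replicates. Gjb6 (gene 14623), which encodes Cx30, and Panx1 (gene 55991), the widely expressed ATP-release channel, came last with 13.9 ± 1.85 and 13.2 ± 0.469 TPM in controls, where their values overlapped. In the Ptch1-ablated samples they did not, with Panx1 at 13.6 ± 0.289 TPM and Gjb6 at 8.25 ± 1.47 TPM.

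**Figure D1:**
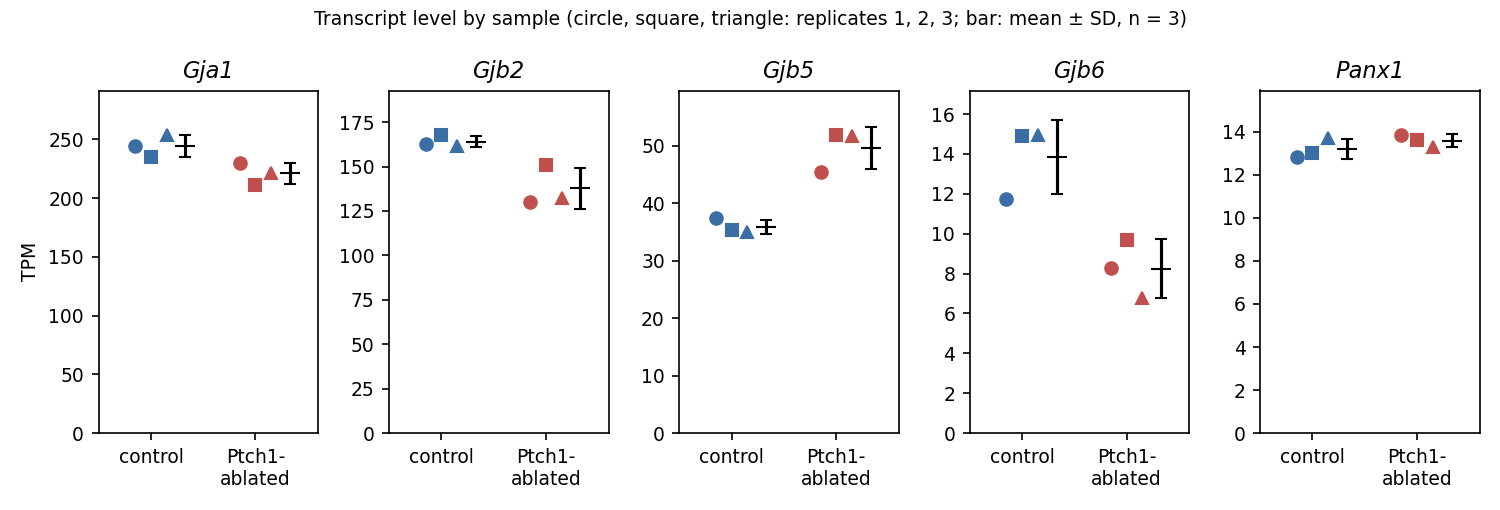
Transcript level in TPM (vertical axes, starting at 0, with a different scale for each gene) of Gja1, Gjb2, Gjb5, Gjb6 and Panx1 in each of 3 control and 3 Ptch1-ablated samples, with the mean ± SD beside the points. Gjb5 lies higher and Gja1, Gjb2 and Gjb6 lower in every Ptch1-ablated sample than in any control, and the Panx1 groups overlap. Gja1 and Gjb2 did not pass the test.

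Gja1 was slightly lower in Ptch1-ablated samples in TPM, and the difference did not pass the test. It stood at 244, 235 and 254 TPM in control replicates 1, 2 and 3 and at 230, 212 and 222 TPM in Ptch1-ablated replicates 1, 2 and 3, from 6108 to 7360 expected counts per sample. Every Ptch1-ablated sample was thus below every control in TPM, but in CPM (counts scaled to library size) with TMM factors the groups overlapped. The log2 fold change was -0.10 (SE 0.08, 95% interval -0.28 to 0.08, adjusted p = 0.388, edgeR's quasi-likelihood test with Benjamini-Hochberg adjustment). As with every gene here, fewer cells of a type that makes it and less RNA of it per cell cannot be told apart in bulk samples.

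Gjb2 was lower in each Ptch1-ablated sample, by less than the test required. Controls had 163, 168 and 162 TPM, within a narrow range, and the Ptch1-ablated samples had 130, 151 and 132 TPM, with replicate 2 nearest the controls. The groups did not overlap in TPM or CPM. The log2 fold change was -0.21 (SE 0.08, 95% interval -0.40 to -0.03), with an unadjusted p of 0.0283 and an adjusted p of 0.106 (edgeR's quasi-likelihood test with Benjamini-Hochberg adjustment).

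Gjb5 was the member with the smallest adjusted p. It had 37.3, 35.4 and 35.1 TPM in control replicates 1, 2 and 3 and 45.4, 51.8 and 51.6 TPM in Ptch1-ablated replicates 1, 2 and 3, from 551 to 810 expected counts. The lowest Ptch1-ablated sample, replicate 1, was well above the highest control. The rise was 1.42-fold, a log2 fold change of 0.50 (SE 0.08, 95% interval 0.32 to 0.68, adjusted p = 0.0124, edgeR's quasi-likelihood test with Benjamini-Hochberg adjustment). Without Ptch1-ablated replicate 1, the sample that stood apart, the log2 fold change was 0.53 (adjusted p = 0.0146), and only without control replicate 2 did Gjb5 not pass (0.48, adjusted p = 0.0725). Across the whole table, leaving out control replicate 2 reduced the genes called from 420 to 59.

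Gjb6 moved the other way. It had 11.7, 14.9 and 14.9 TPM in control replicates 1, 2 and 3 and 8.30, 9.69 and 6.76 TPM in Ptch1-ablated replicates 1, 2 and 3, from 125 to 263 expected counts, the fewest of the 5 together with Panx1. Control replicate 1 was the lowest control and was still above every Ptch1-ablated sample. The level was 1.58-fold lower, a log2 fold change of -0.66 (SE 0.15, 95% interval -1.02 to -0.30, adjusted p = 0.0338, edgeR's quasi-likelihood test with Benjamini-Hochberg adjustment). Whether Gjb6 passed depended on more of the samples than for Gjb5. It passed without Ptch1-ablated replicate 2 (adjusted p = 0.0421). It did not pass without control replicate 1 (0.0612), control replicate 2 (0.126), control replicate 3 (0.0853), Ptch1-ablated replicate 1 (0.0556) or Ptch1-ablated replicate 3 (0.0551), while the log2 fold change stayed between -0.78 and -0.52.

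Panx1 was the steadiest of the 5. It had 12.8, 13.02 and 13.7 TPM in control replicates 1, 2 and 3 and 13.8, 13.6 and 13.3 TPM in Ptch1-ablated replicates 1, 2 and 3. The groups overlapped, with a log2 fold change of 0.08 (SE 0.09, 95% interval -0.13 to 0.30, adjusted p = 0.564, edgeR's quasi-likelihood test with Benjamini-Hochberg adjustment). The interval leaves room for a rise of up to 0.30 or a fall of up to -0.13 on the log2 scale. Panx2, the other pannexin with enough counts to test, was low, at 0.51, 0.93 and 0.75 TPM in controls and 0.55, 0.47 and 0.81 TPM in Ptch1-ablated samples, and did not pass either (adjusted p = 0.625).

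Counted against the whole table, 0 of the 5 genes were called, which took an adjusted p no higher than 0.05 and a change of 2-fold or more, where 3.23% of the 12999 tested genes were called, 2.34% upward and 0.892% downward. Without the fold requirement 2 of 5 passed, 1 up and 1 down, where 14% of all genes passed, 7.61% up and 6.41% down. At an unadjusted p under 0.05 there were 3 of 5 against 33.5%. The groups did not overlap for 4 of the 5 in TPM, 1 above and 3 below the controls, against 37.7% of all genes (16.2% above, 21.5% below). In CPM they did not overlap for 3 of the 5, 1 above and 2 below, against 39.9% (19.7% above, 20.3% below).

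Other family members were examined in the same fit. Of 20 listed connexins 18 were in the table, and of 3 listed pannexins 2, and 9 connexins and both pannexins had enough counts to test. Again 0 of these 11 were called with the fold requirement, against 3.23% of all tested genes. An unadjusted p under 0.05 was reached by 4 of the 11, against 33.5% of all tested genes. Without the fold requirement edgeR passed 3 of 11, Gjb5 and Gjb6 among them, where 14% of all tested genes passed. The count was 3 of 11 with limma-voom, 3 of the 20 fitted with DESeq2, 2 of 20 in edgeR without the count filter and 1 of 20 with limma on log2(TPM + 1) without a filter. With a sample left out it was 0 to 2 of 11, and 0 without control replicate 2. The median log2 fold change over the 11 was -0.10 and over all tested genes -0.01, and the median absolute log2 fold change was 0.25 against 0.20.

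**Figure D2:**
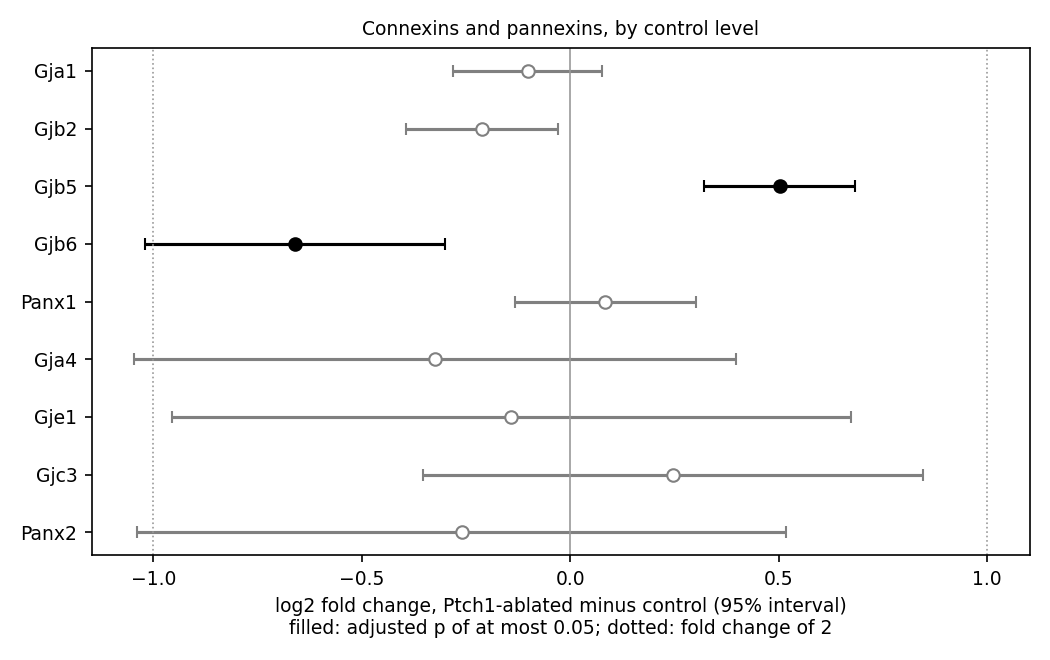
Log2 fold change, Ptch1-ablated minus control, with its 95% interval (horizontal axis) for 9 connexins and pannexins, ordered from the highest control level at the top. Filled points mark an adjusted p of at most 0.05, reached by Gjb5 at 0.50 and Gjb6 at -0.66, both inside the dotted lines at a fold change of 2.

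Several other connexins were scarce in these epithelial samples. Gja4, Gje1 and Gjc3 had mean levels of 1.01 to 2.32 TPM in controls and 1.17 to 1.80 TPM in Ptch1-ablated samples and did not pass (adjusted p from 0.501 to 0.812, edgeR's quasi-likelihood test with Benjamini-Hochberg adjustment). The counts of Gje1 and Gjc3 were not whole in every sample, so part of their reads were shared with other genes, whereas Gja1, Gjb2, Gjb5, Gjb6 and Panx1 had whole counts in all 6 samples. The 9 untested connexins stayed at or below 0.370 TPM in both group means apart from Gjb1, the connexin of liver and Schwann cells, which had a mean of 0.377 TPM in Ptch1-ablated samples. Gjc1, which encodes Cx45, was at 0.33, 0.22 and 0.56 TPM in controls and 0.12, 0.09 and 0.09 TPM in Ptch1-ablated samples, the latter from 2.01 to 3.01 expected counts, near or below the floor of 3 counts (0.145 to 0.148 CPM, which covers counting error only), so no fold is given. Gjc1 had 5.31 to 13.19 expected counts in controls. Gjd3, Gja6, Gja3, Gjd4 and Gja5 were also among the untested connexins. All 9 were below the count filter. In the fits without it, 0 of the 9 passed and 2 had an unadjusted p under 0.05, and the lowest adjusted p, that of Gjc1, was 0.0978 in edgeR and 0.101 in limma on log2(TPM + 1).

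In TPM, both the sum of the connexin messages and part of their mixture stood apart between the groups, and the sizes of these differences were not compared. Summed over all 18 connexins the level was 620, 610 and 615 TPM in control replicates 1, 2 and 3 and 578, 600 and 590 TPM in Ptch1-ablated replicates 1, 2 and 3, without overlap. That separation is given for TPM only, and the sum was not compared in CPM. Gja1, the largest part of the sum, overlapped in CPM, at 350 in Ptch1-ablated replicate 1 against 329 in control replicate 2. Gja1 and Gjb2 together made up 66.4% ± 1.05 of that sum in controls and 60.9% ± 1.2 in Ptch1-ablated samples (mean ± SD, n = 3). For both the sum and this share the groups did not overlap in TPM and the exact permutation test gave two-sided p = 0.10, the smallest that 3 against 3 samples allow. Since these are shares of a sum, a gain in one lowers the others.

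**Figure D3:**
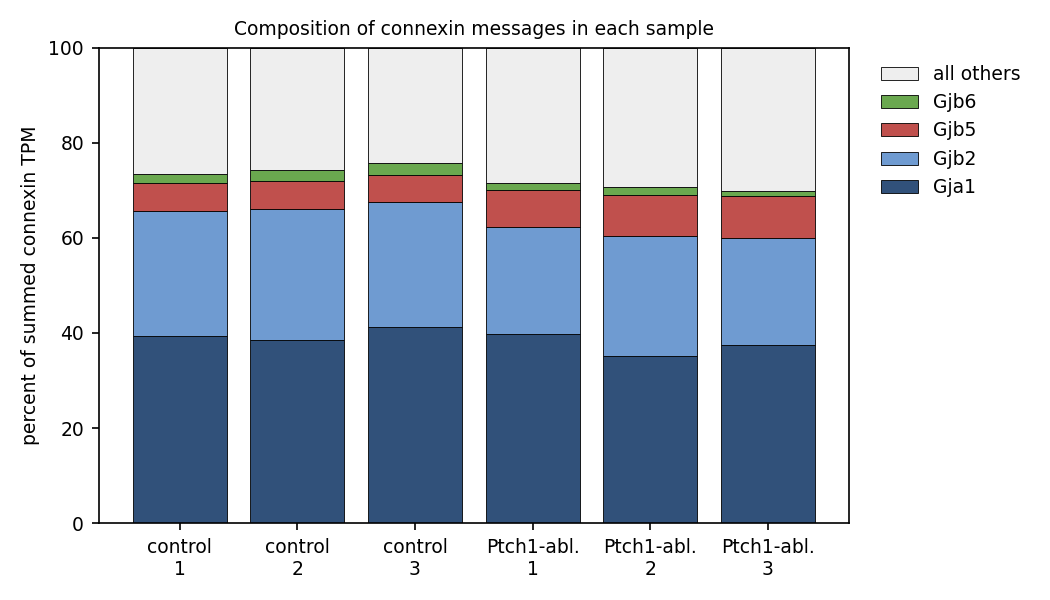
Percent of the summed connexin TPM (vertical axis, from 0 to 100) contributed by Gja1, Gjb2, Gjb5, Gjb6 and all other connexins in each of the 6 samples. The Gjb5 segment is thicker in the 3 Ptch1-ablated samples and the Gjb2 and Gjb6 segments are thinner, while Gja1 stays the largest segment in every sample.

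Taken singly, the members took different courses within that sum. The share of Gjb5 was 6.02%, 5.80% and 5.70% in control replicates 1, 2 and 3 and 7.85%, 8.63% and 8.74% in the Ptch1-ablated replicates. That of Gjb6 was 1.89%, 2.45% and 2.43% against 1.44%, 1.61% and 1.14%. The share of Gjb2 was 26.2%, 27.5% and 26.3% against 22.5%, 25.1% and 22.4%. In each of these the groups were apart (exact p = 0.10), Gjb5 above and the other two below the controls. The share of Gja1 was 39.3%, 38.6% and 41.3% in controls and 39.8%, 35.3% and 37.6% in Ptch1-ablated samples, and overlapped (exact p = 0.30).

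Ratios between members within a sample do not depend on depth scaling, and 10 pairs were compared as log2 ratios of TPM + 0.1. The groups did not overlap for 9 of them, each with an exact two-sided p of 0.10. The 10 ratios share 5 genes, 4 of which did not overlap in TPM by themselves, so the ratios are not independent. The share of such ratios among other gene pairs was not computed. The exception was Gja1 over Gjb2, the abundant pair, at 0.57 ± 0.08 in controls and 0.68 ± 0.18 in Ptch1-ablated samples (mean ± SD, n = 3, exact p = 0.50). The largest difference was in Gjb5 over Gjb6, at 1.66, 1.24 and 1.23 in control replicates 1, 2 and 3 and 2.44, 2.41 and 2.91 in the Ptch1-ablated replicates, a difference of 1.21. Control replicate 1 was nearest to the Ptch1-ablated samples. With a sample left out the difference ran from 1.05 to 1.35, and it was 1.28 without Ptch1-ablated replicate 1.

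Against Panx1, whose own groups overlapped, each connexin kept its direction. The log2 ratio of Gjb6 to Panx1 was 0.06 ± 0.17 in controls and -0.73 ± 0.24 in Ptch1-ablated samples, so that Gjb6 stood at 0.604 times the Panx1 level in the latter. For Gjb5 over Panx1 the values were 1.44 ± 0.09 and 1.86 ± 0.13. For Gjb2 over Panx1 they were 3.63 ± 0.07 and 3.33 ± 0.12, and for Gja1 over Panx1 4.20 ± 0.04 and 4.01 ± 0.06 (mean ± SD, n = 3 for each). Relative to Panx1, then, Gjb5 was higher and the other 3 connexins were lower in every Ptch1-ablated sample. The neighbors Gjb2 and Gjb6 were both lower and not equally so, since their log2 ratio was 3.56 ± 0.19 in controls and 4.06 ± 0.19 in Ptch1-ablated samples without overlap (exact p = 0.10). Gjb2 over Gjb5 was 2.19 ± 0.06 and 1.47 ± 0.10 in the same order, a difference of -0.72, and Gja1 over Gjb5 differed by -0.61 and Gja1 over Gjb6 by 0.60.

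Across the 6 samples, the genes whose log2 CPM followed each member most closely were ranked by Pearson's r among the 9003 genes with at least 10 CPM. These are descriptions over 6 points that share their libraries and the difference between groups. For Gjb5 they were Sipa1l2 (r = 0.998), Jmjd4 (0.991) and Pacsin3 (0.988), whose own log2 fold changes were 0.46, 0.22 and 0.80. For Gjb6 they were Scnm1 (0.990), Mrpl23 (0.985), a mitochondrial ribosomal protein, and Hr (0.984), the hairless corepressor of skin. For Gjb2 they were Maco1 (0.995), Gcat (0.994) and the exon junction helicase Eif4a3 (0.991). For Gja1 they were Cr1l (0.985), Cpq (0.983) and Ndufab1 (0.981), and for Panx1 Cul1 (0.999), a scaffold of ubiquitin ligases, Dnajc3 (0.997) and the fatty acid desaturase Scd1 (0.992).

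Gap junctions are anchored, trafficked and degraded by a set of partner proteins, and 26 of 28 listed gene symbols were tested. The list held Ccn3 also under its older symbol Nov, and 27 of the symbols were in the expression table. Of these 2 passed upward and 1 downward, 11.5% of those tested where 14% of all genes passed, 18 had a log2 fold change above 0, and the median was 0.06. Among those that rose was the scaffold gene Tjp1, whose product ZO-1 binds connexin tails at the junction edge. Tjp1 had 137, 132 and 139 TPM in controls and 171, 172 and 169 TPM in Ptch1-ablated samples, a log2 fold change of 0.37 (SE 0.07, adjusted p = 0.0208, edgeR's quasi-likelihood test). The Tjp1 samples were tightly grouped, and Tjp1 did not pass without control replicate 2 (adjusted p = 0.102), control replicate 3 (0.0623) or Ptch1-ablated replicate 2 (0.0541).

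The partner that fell was Ccn3, which encodes a secreted matricellular protein that binds the Cx43 tail. It had 15.7, 17.6 and 21.6 TPM in control replicates 1, 2 and 3 and 3.34, 8.15 and 6.74 TPM in Ptch1-ablated replicates 1, 2 and 3. The log2 fold change was -1.56 (SE 0.27, adjusted p = 0.0165, edgeR's quasi-likelihood test), past 2-fold, and Ptch1-ablated replicate 1 was the lowest sample. Without that sample it was -1.28 (adjusted p = 0.00713), and without control replicate 2 it was -1.59 (adjusted p = 0.0725). Cdh1 and Ctnnb1, the adherens junction genes on which gap junction assembly depends, did not pass, at 0.09 (adjusted p = 0.398) and 0.11 (adjusted p = 0.265). The connexin-recycling gene Cnst, consortin, was just short at -0.47 (adjusted p = 0.0577).

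ATP that leaves through pannexin and connexin hemichannels acts on P2X and P2Y receptors and is broken down by ectoenzymes, and 15 of 26 listed genes of this signaling system were tested. Here 2 passed upward and 2 downward, 26.7% of those tested where 14% of all genes passed, with 6 above 0 and a median log2 fold change of -0.25. The gene with the largest change was Nt5e, which encodes CD73, the enzyme that turns extracellular AMP into adenosine. It had 3.96, 4.76 and 8.20 TPM in control replicates 1, 2 and 3 and 34.3, 15.8 and 33.7 TPM in Ptch1-ablated replicates 1, 2 and 3. Replicate 2 was the lowest of the Ptch1-ablated samples and still above every control. The log2 fold change was 2.36 (SE 0.36, adjusted p = 0.0119, edgeR's quasi-likelihood test), and it was 2.14 (adjusted p = 0.0154) without Ptch1-ablated replicate 1 and 2.25 (adjusted p = 0.0711) without control replicate 2.

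The P2 receptors moved in different directions. P2ry2, a receptor for ATP and UTP and by far the highest of the listed receptors, had 133, 149 and 152 TPM in controls and 207, 214 and 184 TPM in Ptch1-ablated samples. Its log2 fold change was 0.52 (SE 0.09, adjusted p = 0.0174, edgeR's quasi-likelihood test), and it did not pass without control replicate 1 (adjusted p = 0.0565) or control replicate 2 (0.0803). P2rx7, the ATP-gated channel that has been linked to Panx1 opening, had 8.27, 11.1 and 11.6 TPM in controls and 4.36, 5.46 and 5.78 TPM in Ptch1-ablated samples. All Ptch1-ablated samples were below all controls, and the log2 fold change of -1.07 (SE 0.17, adjusted p = 0.0140, edgeR) passed 2-fold. P2ry1, a receptor for ADP, had 10.5, 10.1 and 11.1 TPM in controls and 6.54, 7.01 and 6.50 TPM in Ptch1-ablated samples (log2 fold change -0.64, SE 0.09, adjusted p = 0.0105, edgeR). With a sample left out, P2rx7 and P2ry1 did not pass only without control replicate 2 (adjusted p 0.0725 and 0.0582). The P2rx7 change fell short of 2-fold without control replicate 3 (-0.94) or Ptch1-ablated replicate 1 (-0.95). It also fell short with limma on log2 TPM (-0.97 to -0.86). The ectonucleotidase genes Entpd1 (-0.73, adjusted p = 0.115), Entpd3 (-0.66, adjusted p = 0.0913), Enpp1 (-0.68, adjusted p = 0.0809) and Entpd2 (-0.01, adjusted p = 0.967) did not pass.

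**Figure D4:**
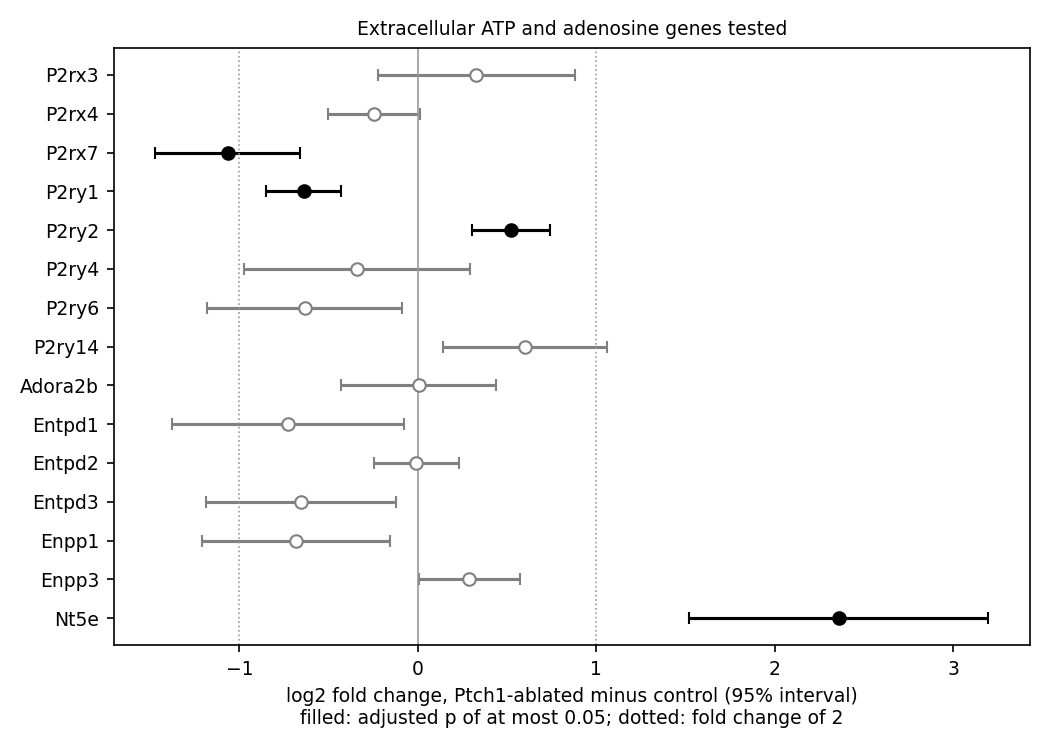
Log2 fold change, Ptch1-ablated minus control, with its 95% interval (horizontal axis) for the 15 tested genes of extracellular ATP and adenosine signaling, with receptors above and ectoenzymes below. Filled points mark an adjusted p of at most 0.05, with Nt5e at 2.36, P2ry2 at 0.52, P2ry1 at -0.64 and P2rx7 at -1.07.

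Other routes of ATP release were represented by 9 tested genes of 14 listed, covering the volume-regulated LRRC8 channels, CALHM channels and the vesicular nucleotide transporter among others. Only Lrrc8d passed, 11.1% of those tested where 14% of all genes passed, with 9.65, 10.2 and 9.22 TPM in controls and 12.1, 15.6 and 12.01 TPM in Ptch1-ablated samples, and the median log2 fold change was 0.12. The Lrrc8d log2 fold change was 0.48 (SE 0.12, adjusted p = 0.0409, edgeR's quasi-likelihood test). With a sample left out, Lrrc8d passed only without Ptch1-ablated replicate 3 (adjusted p = 0.0383). It did not pass when any other sample was left out (0.0592 to 0.119) or with limma on log2 TPM (0.0645 to 0.110). Slc17a9, the vesicular transporter, did not pass (0.28, adjusted p = 0.312).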

How the data were processed

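RNA-seq of corneal epithelial cells was measured in 6 samples, 3 per group, which the study describes as biological replicates. Per the labels, reads were processed with Bowtie2 2.2.5 and RSEM 1.2.12 against mm9. For the libraries the paper names Ribo-Zero Gold depletion and BGISEQ-500 sequencing, and the labels an Illumina TruSeq kit. Strand use in counting is not given in the sources used here. The authors deposited RSEM expected counts per gene, unscaled for depth, and TPM values, scaled within a sample for length and depth. The FPKM values and the group means that the authors also deposited were not used. RSEM divides reads among similar genes, and 39.4% of values above 0 were not whole (tolerance 0.005).

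Expected counts were rounded and 12999 of 17784 genes that passed filterByExpr entered edgeR 4.0.16 in R 4.3.3 (TMM factors 0.960 to 1.03) for its quasi-likelihood test with Benjamini-Hochberg adjustment over all of them. Calls used the thresholds of the study's methods, 0.05 for the adjusted p and 2 for the fold, and were repeated without the fold requirement. Expected counts per sample were 20296741 to 20625813. Ratios and shares of TPM were compared by exact two-sided permutation of samples, which cannot go below p = 0.10. Alternatives were DESeq2 1.42.0, limma 3.58.1 (voom, and log2 TPM with pseudocounts of 1 and 0.1), other size factors and filters, a replicate block and each sample left out; for the genes of the ATP, partner and release lists they were added after those genes had passed. Replicates differed beyond sampling noise (chi-square over degrees of freedom 10.1 to 37.8). The fits were tested on simulated data.

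The members and lists were chosen with earlier results of these data known. Named were the members, the family genes tested, list genes that passed, and the 3 genes most correlated with each member. Some list genes that did not pass were named after their values were seen. Promoter windows are RefSeq's on GRCm38.p6, not the build of the counts, and were matched by symbol for all 5 members. Some genes that meet this rule are not reported here. Protein sequences and keratocyte data were not used here.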

Additional observations from a re-analysis of the deposited data

How the results depend on the processing

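The 420 genes called (304 up, 116 down) became 234 (165 up, 69 down) with limma on log2(TPM + 1) at a mean TPM of at least 1, 168 (122 up, 46 down) with limma on log2(TPM + 1) without a filter, and 1822 (989 up, 833 down) without the fold requirement. Leaving out each sample in turn gave 59 to 430 (45 to 298 up, 14 to 132 down), lowest without control replicate 2. Of connexins and pannexins, 0 were called in these fits, and 3 without the fold requirement. Under the 6 fits that left out a sample, the log2 fold change ran from -0.17 to -0.07 for Gja1, from -0.28 to -0.15 for Gjb2, from 0.47 to 0.55 for Gjb5, from -0.78 to -0.52 for Gjb6, and from 0.04 to 0.13 for Panx1. Over the other alternatives Gjb5 kept its side of the threshold in all 9 and Gjb6 in 8. Gjb6 missed it with limma on log2(TPM + 1) without a filter (-0.69, adjusted p = 0.0609); the cause was not tested. Gje1, never past the threshold, ran from -0.40 to 0.13 and changed sign without control replicate 2 (0.13) and without Ptch1-ablated replicate 3 (0.04). None of the 10 ratios between members and none of the shares of Gja1, Gjb2, Gjb5 and Gjb6 reversed in the alternatives run for them. The summed connexin level and the combined share of Gja1 and Gjb2 were given no alternative, CPM included, and with a sample left out the exact p cannot go below 0.20.

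The replicate numbers come from the sample titles, and same-numbered samples did not deviate together (correlations 0.11, -0.01 and 0.02). With the replicate block 390 genes were called, and the log2 fold changes were 0.50 for Gjb5 (adjusted p = 0.0230) and -0.67 for Gjb6 (adjusted p = 0.0417) in edgeR, on the same side of the threshold as without it. Depth limits the 9 untested connexins most, since their values rest on few counts per sample.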
